A study of Homo sapiens with 6 samples.

Results

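The collagen chains are the protein-coding genes whose symbol is COL, a number, A and a number. GENCODE 29 holds 44 of them, and 43 are among the 33890 genes of the deposited table. COL6A5 was not analysed here. The chains were grouped by the assembly they form: 11 fibrillar chains, 6 basement membrane chains of type IV, 4 chains of collagen VI and 22 chains of other classes. The cells were LN229, 1 established human glioblastoma cell line that grows attached in culture. The control group was untreated, and the other group received 800 µM ursodeoxycholic acid (UDCA), the bile acid given to patients with cholestasis, for 48 h. Each group had 3 libraries of polyadenylated RNA, and the labels name no genotype or other agent that separated them. No culture time is given for the control libraries. The study's title sets the comparison in a test of UDCA as an agent against glioblastoma.

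Collagens are extracellular or membrane-bound proteins in which 3 chains wind into a triple helix. Fibrillar chains build cross-striated fibrils, type IV chains form the network of basement membranes, and collagen VI forms beaded microfilaments near the cell surface. FACIT chains (fibril-associated collagens with interrupted triple helices) sit on fibrils, while the remaining classes span membranes, anchor epithelia or form short-chain lattices. In brain, collagen is mostly a component of vessel basement membranes, and glioblastoma cells are known to lay down collagen of their own.

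Values are FPKM, reads scaled by exon length and by the library's total over the listed genes, as mean ± SD (n = 3 in each group). A fold is the ratio of group means, and a log2 change is UDCA minus control after adding 1 to each FPKM, so for genes near or under 1 FPKM it is smaller than the change itself (called the log2(FPKM + 1) scale). Adjusted p-values are from limma with Benjamini-Hochberg adjustment over all tested genes. A gene was tested if it reached 1 FPKM in at least 3 of the 6 libraries, and it was called at an adjusted p under 0.05. Whether the 3 libraries of a group were grown as separate cultures is not in the labels. A p-value therefore measures the spread among these 6 libraries only, and that spread may be technical. Because the samples are bulk RNA, fewer cells of a kind and less RNA per cell cannot be told apart.

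Libraries held between 15988951 and 17743022 reads, so 3 reads in a gene of 1 kb equal 0.169 to 0.188 FPKM, with counting error only. Most tested genes differed between the groups (80.8%), which sets the scale for every count of collagen chains. Mitochondrially encoded genes took 3.13 to 3.16% of reads in control libraries and 0.0263 to 0.0271% in UDCA libraries. The summed level of 9 glial and glioma markers lay at 776 to 793 FPKM in control and 165 to 167 FPKM in UDCA libraries, with 6 of the 8 tested members lower, 1 higher (EGFR) and 1 not passing (OLIG2). Of the 6 lower, FABP7 was tested through the control group only and so had to differ. GFAP, the defining intermediate filament of astrocytes, stayed under 1 FPKM in every library, at 0.612 ± 0.0807 and 0.505 ± 0.0586. Of 8 fibroblast and pericyte markers 6 were tested, 2 higher and 4 lower, with sums of 25.0 to 25.9 FPKM in control and 13.9 to 14.5 FPKM in UDCA libraries, and THY1 was under 0.1 FPKM throughout. Of those 4 lower markers, 3 (PDGFRA, FAP and RGS5) were tested through the control group only and so had to differ. Summed endothelial, immune and epithelial markers stayed under 1 FPKM in each library: 4 of 5 endothelial, 3 of 4 listed immune and 3 of 4 epithelial markers were under 0.1 FPKM in all 6. With mitochondrial genes left out of the totals, 6 collagen chains were called higher and 14 lower, the same counts as with them. Any other part of the mitochondrial and glial marker shifts in the collagen results was not tested.

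Most collagen chains that these cells expressed had less messenger RNA under UDCA, while collagen VI had more. Of the 43 chains, 22 were tested: 14 fell, 6 rose, and COL7A1 and COL15A1 did not pass. Among all 14380 tested genes 45.1% were called higher and 35.7% lower, so the collagens had more lower than higher calls where genes at large had the reverse. The median log2 change of the tested chains was -0.67, against 0.095 for all tested genes, with a range from -2.72 (COL11A1) to 2.31 (COL6A2). A called change of at least 1 on the log2 scale occurred in 9 lower chains and 1 higher chain, against 12.0% and 12.3% of all tested genes. The groups did not overlap in 20 of the 22 tested chains, and they did not overlap in 82.8% of all tested genes. Of the 22, 19 were at 1 FPKM or more in every library (4 higher, 13 lower, 2 not passing). The other 3 reached the level for testing through 1 group only (COL4A4 and COL24A1 through UDCA, COL13A1 through control) and so had to differ.

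**Figure D1:**
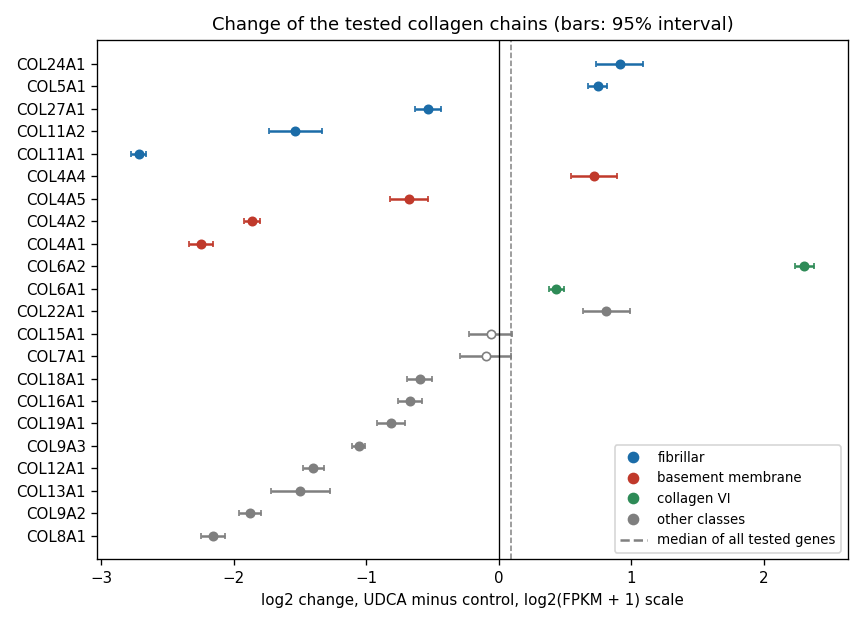
The log2 change of each of the 22 tested collagen chains (x axis, UDCA minus control in log2(FPKM + 1)) with its 95% interval, by class; filled points passed an adjusted p of 0.05 and the dashed line is the median of all tested genes, 0.095. Both tested collagen VI chains lie to the right of 0, and 14 chains of the remaining classes lie to the left with filled points.

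The make-up of the collagen message differed more between the groups than its total. The 43 chains together came to 689.8, 699.9 and 697 FPKM in the control libraries and to 546, 539 and 557 FPKM in the UDCA libraries, a total 1.27-fold lower. As a share of all reads they made up 0.578% ± 0.00395 in control and 0.360% ± 0.00475 in UDCA libraries. Fibrillar chains summed to 207 ± 1.46 FPKM in control and 60.3 ± 0.748 FPKM in UDCA libraries, 3.43-fold lower. Basement membrane chains summed to 67.6 ± 0.826 and 18.9 ± 0.308 FPKM, 3.58-fold lower. Collagen VI went the other way, with 119, 124 and 122 FPKM in control and 333, 329 and 347 FPKM in UDCA libraries, 2.76-fold higher. The other classes together stood at 299 ± 2.82 and 132 ± 0.400 FPKM, 2.27-fold lower. No class sum overlapped between the groups.

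In control cells COL11A1 and COL9A3 were the most abundant chains and held 48.5% ± 0.281 of the summed collagen FPKM, and in UDCA cells they held 19.0% ± 0.370. COL6A1 and COL6A2 held 17.4% ± 0.208 in control and 61.4% ± 0.709 in UDCA cells. The order of the leading chains was COL11A1, COL9A3, COL6A1, COL6A2 in control and COL6A2, COL6A1, COL9A3, COL11A1, COL5A1 in UDCA libraries. COL11A1 and COL9A3 were close in control cells, at 173 ± 1.94 and 164 ± 2.68 FPKM, and COL11A1 and COL5A1 in UDCA cells did not differ beyond their spread, at 25.5 ± 0.533 and 25.4 ± 0.360 FPKM. Levels between genes depend on the length used. Per the longest coding transcript in place of all annotated exons, a calculation added after seeing the data, COL9A3 came first and COL11A1 second in control, with COL4A2 next. In UDCA cells COL6A2 stayed first, COL9A3 (152) moved above COL6A1 (128), and COL5A1 (33.6) above COL11A1 (31.7). On that length collagen VI held 15.1% of the sum in control and 58.6% in UDCA cells. The length of COL4A2 is 19293 bases over all annotated exons and 6494 bases in that transcript, so its level and that of the basement membrane class depend most on this choice.

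**Figure D2:**
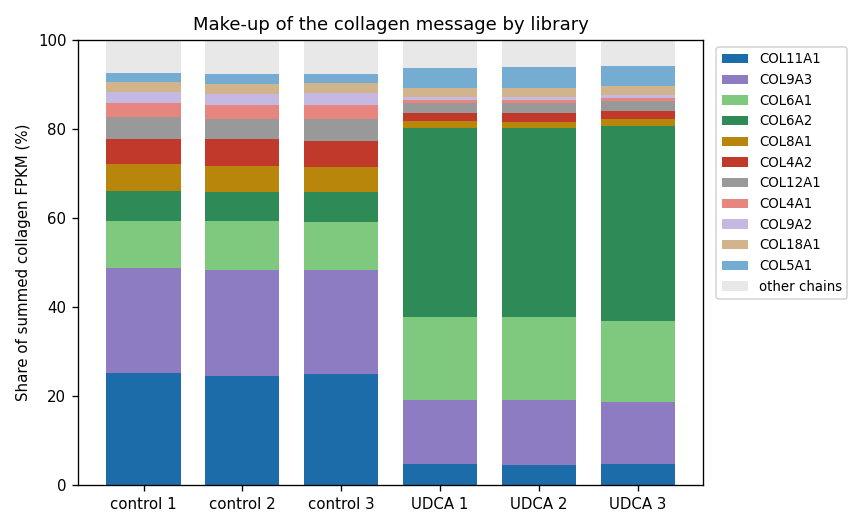
Share of each chain in the summed collagen FPKM (y axis, percent) in each of the 6 libraries (x axis). The green segments, COL6A1 and COL6A2, make up 17.4% of the control bars and 61.4% of the UDCA bars on average, and the 3 bars of a group look alike.

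**Figure D3:**
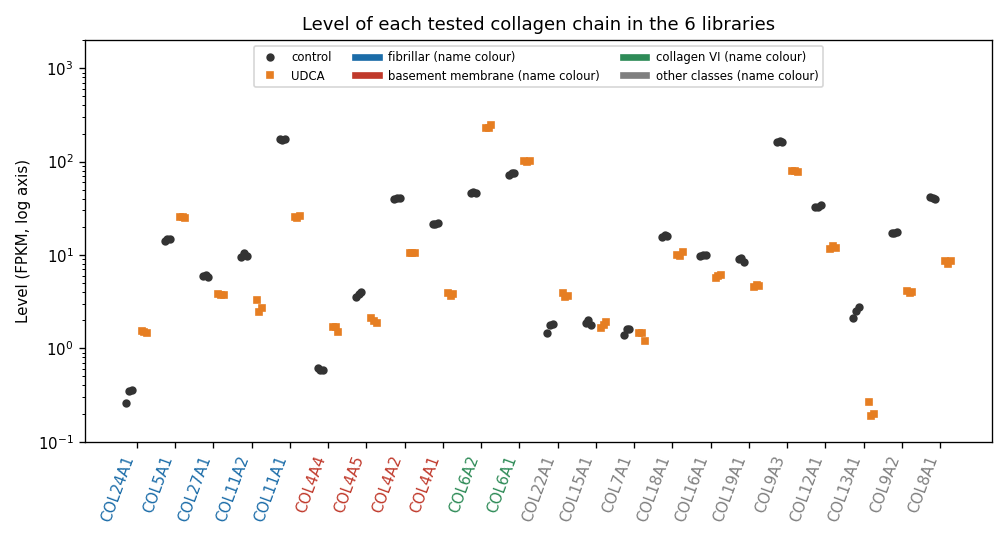
Level of the 22 tested chains in FPKM (y axis, log scale), with 1 point per library, control libraries as circles and UDCA libraries as squares, and names coloured by class. Circles and squares separate in every chain but COL7A1 and COL15A1.

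Among fibrillar chains, 5 of 11 were tested, 3 fell and 2 rose, with a median log2 change of -0.54. Without any 1 UDCA replicate COL24A1 was no longer tested, and the median was as low as -1.09. COL11A1 (chromosome 1, 102876467 to 103108872, GRCh38), a chain of the type XI collagen that sits in the core of thin fibrils, stood at 174, 171 and 175 FPKM in control and 25.7, 24.9 and 26.0 FPKM in UDCA libraries. Every UDCA value lay far under every control value. The chain fell 6.79-fold, the lowest change among the 22 tested chains on the log2(FPKM + 1) scale (-2.72, SE 0.0225, adjusted p = 6.02e-10, limma). That rank depends on the scale: with a pseudocount of 0.1 and with voom the low chain COL13A1 was lower, at -3.56 with voom. Its partner in type XI collagen, COL11A2, was at 9.60, 10.5 and 9.88 FPKM in control and 3.28, 2.45 and 2.68 FPKM in UDCA libraries, 3.56-fold lower (adjusted p = 2.66e-06). COL27A1, a fibrillar chain known from cartilage, moved less, from 5.93 ± 0.137 to 3.78 ± 0.0820 FPKM (1.57-fold lower, adjusted p = 1.62e-05).

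COL5A1 (chromosome 9, 134641774 to 134844843, GRCh38), a chain of the type V collagen that controls fibril diameter, rose. It was at 14.2, 15.0 and 15.0 FPKM in control and 25.4, 25.8 and 25.1 FPKM in UDCA libraries, 1.72-fold higher (log2 change 0.75, adjusted p = 5.49e-07). Its partner COL5A2 was too low to be tested, at 0.411, 0.460 and 0.461 FPKM in control and 0.990, 0.921 and 1.11 FPKM in UDCA libraries, with the UDCA values above all control values. The other chain of that type, COL5A3, was at 0.189 to 0.285 FPKM in control and 0.131 to 0.167 FPKM in UDCA libraries. COL24A1, a minor fibrillar chain, was at 0.258, 0.352 and 0.359 FPKM in control and 1.52, 1.48 and 1.47 FPKM in UDCA libraries (log2 change 0.91, adjusted p = 2.3e-05). COL24A1 was tested through the UDCA group only and so had to differ. So type V and type XI chains, which can join in mixed fibrils, moved in opposite directions in these cells for the tested members COL5A1, COL11A1 and COL11A2.

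The classical chains of tissue fibrils were low in LN229, with a highest library value of 1.30 FPKM (COL1A1). COL1A1, which with COL1A2 makes type I collagen of skin, bone and scar, was at 0.863, 1.08 and 1.30 FPKM in control and 0.140, 0.131 and 0.108 FPKM in UDCA libraries, on 551 and 62 reads per group. It lies just outside the level for testing, with 2 libraries at 1 FPKM, while COL4A4 and COL24A1 lie just inside. COL1A2 had 21 reads in all control libraries and 0 reads in all UDCA libraries, 6.79-fold lower if 3 reads stand in for the 0. With no filter on low values COL1A2 was not called (adjusted p = 0.137, limma). COL2A1, the cartilage fibril chain, was at 0.568, 0.611 and 0.651 FPKM in control and 0.0375, 0 and 0.0265 FPKM in UDCA libraries, on 210 and 7 reads. COL3A1, the chain of distensible tissues, had 32 and 3 reads. None of these 4 chains was tested, and in each the control values lay above the UDCA values. Among all untested genes, 13.7% had UDCA values under control without overlap. Without the filter COL3A1 was not called either (adjusted p = 0.0513, limma), while COL1A1 and COL2A1 were called lower.

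The window around the annotated start of COL11A1 is shown because that chain had the highest FPKM of the collagens in control cells and fell. It spans chr1:103108473-103108772 on the minus strand (RefSeq, GRCh38.p14), written from 250 bases before to 50 bases after the start, with capitals for GC boxes (GGGCGG on either strand, the motif bound by SP factors) and CCAAT on either strand.
COL11A1: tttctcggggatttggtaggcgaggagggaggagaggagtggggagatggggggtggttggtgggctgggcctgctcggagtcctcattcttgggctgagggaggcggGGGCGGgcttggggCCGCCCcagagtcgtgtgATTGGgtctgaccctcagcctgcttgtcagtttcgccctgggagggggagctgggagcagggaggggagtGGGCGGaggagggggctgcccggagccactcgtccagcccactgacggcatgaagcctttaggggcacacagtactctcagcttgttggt
It holds 3 GC boxes and 1 CCAAT motif, and 66.0% of its bases are G or C.

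Type IV chains are encoded in 3 head-to-head pairs whose starts lie close together on opposite strands, and the pairs did not move alike. Of the 6 chains, 4 were tested, 3 fell and 1 rose, with a median log2 change of -1.27. Without any 1 UDCA replicate COL4A4 was no longer tested, and the median was -1.86. The pair on chromosome 13, which encodes the network of nearly all basement membranes, fell in both members. COL4A1 (110148963 to 110307233, minus strand, GRCh38) was at 21.6, 21.3 and 22.2 FPKM in control and 3.92, 3.61 and 3.84 FPKM in UDCA libraries, 5.73-fold lower (log2 change -2.25, adjusted p = 1.05e-08). COL4A2 (110305812 to 110513209, plus strand) was at 39.8, 41.2 and 40.5 FPKM in control and 10.4, 10.5 and 10.4 FPKM in UDCA libraries, 3.88-fold lower (log2 change -1.86, adjusted p = 3.66e-09). In both chains every control value lay far above every UDCA value.

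On chromosome 2 the paired chains of the kidney glomerulus, lung and inner ear had higher values with UDCA. COL4A4 (227002711 to 227164453, minus strand) was at 0.614, 0.583 and 0.593 FPKM in control and 1.71, 1.70 and 1.49 FPKM in UDCA libraries (log2 change 0.72, adjusted p = 6.86e-05, on 310 and 822 reads). COL4A3 (227164565 to 227314792, plus strand) was not tested, and its 0.257, 0.147 and 0.148 FPKM in control lay under its 0.384, 0.457 and 0.342 FPKM in UDCA libraries, on 86 and 180 reads. The pair on chromosome X had lower values. COL4A5 (108439844 to 108697545, plus strand) was at 3.59, 3.78 and 3.99 FPKM in control and 2.12, 1.98 and 1.88 FPKM in UDCA libraries, 1.90-fold lower (log2 change -0.68, adjusted p = 3.51e-05). COL4A6 (108155607 to 108439497, minus strand) was not tested, at 0.887, 0.814 and 0.814 FPKM in control and 0.660, 0.651 and 0.590 FPKM in UDCA libraries. In each of the 3 pairs both members lay on the same side, without overlap between the groups. However, 2 of the 6 chains have no test, and COL4A4 was tested through the UDCA group only and so had to differ. Of those 2, without the filter on low values, COL4A6 was not called and COL4A3 was called higher (adjusted p = 0.137 and 0.0288, limma). Groups also did not overlap in 82.8% of all tested genes and in 26.8% of all untested genes.

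**Figure D4:**
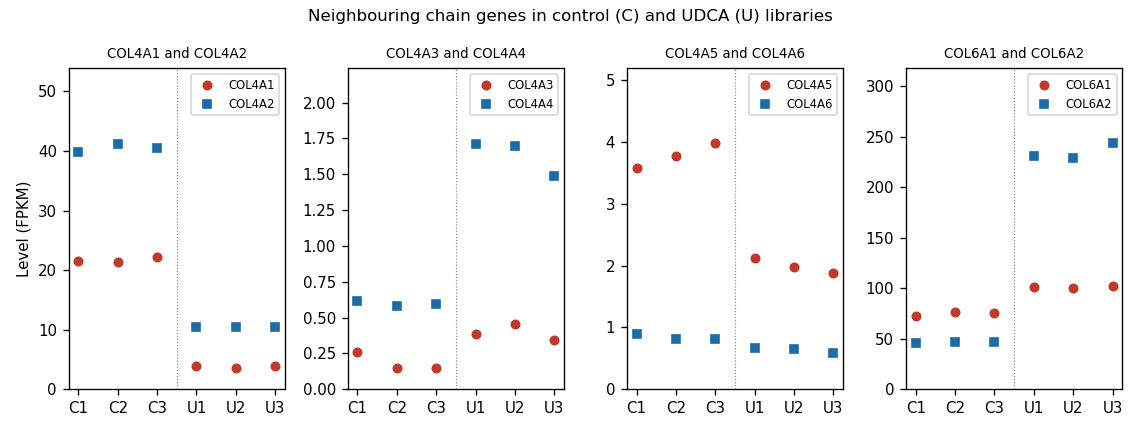
Level in FPKM (y axis, from 0, a scale of its own in each panel) of neighbouring chain genes in control libraries C1 to C3 and UDCA libraries U1 to U3 (x axis). Both members of the pairs on chromosomes 13 and X are lower in the UDCA libraries, and both members of COL4A3 with COL4A4 and of COL6A1 with COL6A2 are higher, COL6A2 by the larger fold.

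The start regions of these pairs are shown because 1 stretch of DNA serves as the upstream region of both neighbours. By RefSeq the starts nearest each other are 127 bases apart for COL4A1 and COL4A2, 419 for COL4A3 and COL4A4, and 380 for COL4A5 and COL4A6. The windows below are on the plus strand: chr13:110307034-110307333 for COL4A2, which shares 226 bases with the window of COL4A1, chr2:227164374-227164673 for COL4A3, which shares 82 bases with that of COL4A4, and chrX:108439588-108439887 for COL4A5, which shares 121 bases with that of COL4A6. Capitals mark GC boxes and CCAAT on either strand, as for COL11A1.
COL4A2: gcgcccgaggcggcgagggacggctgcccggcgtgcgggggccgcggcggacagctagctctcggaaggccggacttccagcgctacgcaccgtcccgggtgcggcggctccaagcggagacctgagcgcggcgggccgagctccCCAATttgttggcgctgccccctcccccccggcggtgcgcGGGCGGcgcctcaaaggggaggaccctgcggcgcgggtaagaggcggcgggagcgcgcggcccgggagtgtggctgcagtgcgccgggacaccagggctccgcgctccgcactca
COL4A3: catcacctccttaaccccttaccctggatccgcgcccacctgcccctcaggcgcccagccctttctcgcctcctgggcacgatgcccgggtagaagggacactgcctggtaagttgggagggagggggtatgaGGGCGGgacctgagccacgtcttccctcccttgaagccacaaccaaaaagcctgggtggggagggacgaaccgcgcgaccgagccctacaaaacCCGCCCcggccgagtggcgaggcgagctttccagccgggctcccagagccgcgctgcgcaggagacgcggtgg
COL4A5: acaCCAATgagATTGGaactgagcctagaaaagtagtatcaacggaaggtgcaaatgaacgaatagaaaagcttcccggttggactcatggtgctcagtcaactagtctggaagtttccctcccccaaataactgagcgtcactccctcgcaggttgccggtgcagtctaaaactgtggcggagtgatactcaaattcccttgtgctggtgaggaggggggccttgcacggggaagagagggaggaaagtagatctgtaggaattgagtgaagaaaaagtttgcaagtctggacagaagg
The window of COL4A2 has 1 GC box and 1 CCAAT motif, with 77.7% of its bases G or C. The window of COL4A3 has 2 GC boxes and no CCAAT motif, with 67.7%. The window of COL4A5 has 2 CCAAT motifs and no GC box, with 49.3%. These are matches of letters, not measured binding sites.

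Collagen VI was the class whose tested members both rose, with a median log2 change of 1.37. COL6A1 and COL6A2 lie in tandem on chromosome 21 (45981737 to 46005050 and 46098097 to 46132849, both on the plus strand, GRCh38), 93.0 kb apart, and their products join with another chain in the microfilament. COL6A2 was at 45.9, 47.1 and 46.7 FPKM in control and 231, 229 and 244 FPKM in UDCA libraries. The lowest UDCA library stood far above the highest control library. The chain rose 5.04-fold (log2 change 2.31, SE 0.0291, adjusted p = 2.95e-09) and became the most abundant collagen message, on 12941 reads in control and 63220 in UDCA libraries. COL6A1 rose less, from 72.7, 76.2 and 75.2 FPKM to 102, 100.3 and 102 FPKM, 1.36-fold (log2 change 0.44, adjusted p = 2.35e-06).

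The longer chain that completes the common collagen VI trimer, COL6A3, did not accompany them. It was at 0.478, 0.574 and 0.514 FPKM in control and 0.118, 0.131 and 0.0990 FPKM in UDCA libraries, on 529 and 114 reads, too low for testing, with all UDCA values under all control values. COL6A6, which can take the place of COL6A3, had 6 and 9 reads. Per FPKM, COL6A3 stood at 0.00698 ± 0.000503 of COL6A1 in control and at 0.00115 ± 0.000171 in UDCA cells.

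The start window of COL6A2, the tested chain with the highest log2 change, spans chr21:46097862-46098161 on the plus strand (RefSeq, GRCh38.p14), with capitals as above.
COL6A2: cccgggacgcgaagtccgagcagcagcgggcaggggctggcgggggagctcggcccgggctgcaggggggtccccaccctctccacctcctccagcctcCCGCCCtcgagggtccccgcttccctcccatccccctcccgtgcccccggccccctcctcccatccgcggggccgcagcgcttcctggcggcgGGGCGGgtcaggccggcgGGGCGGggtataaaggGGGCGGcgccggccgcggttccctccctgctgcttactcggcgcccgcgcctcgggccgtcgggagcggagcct
It holds 4 GC boxes, no CCAAT, and has a GC content of 79.3%. Over all collagens, 32 of 44 genes matched an entry of the RefSeq promoter table, with 44 windows of the same length. The windows' median GC content was 63.7%, against 58.7% for all 35116 windows. GGGCGG was found on either strand in 54.5% of collagen windows (45.0% of all windows), CCAAT in 31.8% (34.6%), TATAAA in 18.2% (11.5%), and TGATGNAA, a composite site of C/EBP and ATF factors, in 2.27% (3.62%). The ER stress element, whose letters include the CCAAT motif, and the cyclic AMP element TGACGTCA were found in 0 collagen windows (0.0769% and 1.85% of all windows). A motif that is not found says only that its letters are not in these windows. Not matched were COL14A1, COL1A1, COL1A2, COL20A1, COL22A1, COL2A1, COL3A1, COL5A2, COL6A1, COL6A5, COL8A1 and COL9A3.

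FACIT chains, which decorate fibrils, fell in 5 of the 6 tested members and rose in 1, with a median log2 change of -0.94. COL9A3 was the most abundant, at 163, 167 and 163 FPKM in control and 79.1, 78.9 and 77.6 FPKM in UDCA libraries, 2.09-fold lower (log2 change -1.05, adjusted p = 1.79e-08). Its partner in type IX collagen, COL9A2, fell more, from 17.2, 17.0 and 17.7 FPKM to 4.09, 3.94 and 3.97 FPKM, 4.34-fold (log2 change -1.88, adjusted p = 1.37e-08). The remaining type IX chain, COL9A1, was not tested, at 0.389 to 0.598 FPKM in control and 0.0405 to 0.0518 FPKM in UDCA libraries. All 3 type IX chains thus had lower values in every UDCA library than in any control library. Groups did not overlap in 82.8% of all tested and 26.8% of all untested genes, and 35.7% of all tested genes were called lower. COL12A1, a large chain of tendon and wound matrix, was at 33.1, 32.8 and 34.3 FPKM in control and 11.7, 12.5 and 12.0 FPKM in UDCA libraries, 2.77-fold lower (adjusted p = 4.88e-08). COL16A1 fell 1.69-fold from 10.0 ± 0.134 to 5.94 ± 0.220 FPKM, and COL19A1 fell 1.92-fold from 8.93 ± 0.379 to 4.64 ± 0.142 FPKM. The exception was COL22A1, a chain of tissue junctions, at 1.47, 1.76 and 1.84 FPKM in control and 3.96, 3.57 and 3.61 FPKM in UDCA libraries (2.20-fold higher, log2 change 0.81, adjusted p = 4.13e-05). COL21A1 was not tested, and its values were also higher in the UDCA libraries, at 0.0876 to 0.127 FPKM in control and 0.622 to 0.822 FPKM in UDCA libraries, on 41 and 253 reads. COL14A1 had 57 reads in control and 1 in UDCA libraries, and COL20A1 had 7 and 22.

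The short-chain COL8A1, known from vessel walls and the cornea, was the most abundant chain of the remaining classes in control cells. It was at 41.7, 40.6 and 39.7 FPKM in control and 8.65, 7.95 and 8.53 FPKM in UDCA libraries, 4.86-fold lower (log2 change -2.15, adjusted p = 1.24e-08). Its homologue COL8A2 was at 0.193 to 0.278 FPKM in control and 0.239 to 0.290 FPKM in UDCA libraries, with overlap. COL13A1, a transmembrane collagen of cell adhesion sites and the neuromuscular junction, was at 2.09, 2.49 and 2.76 FPKM in control and 0.266, 0.189 and 0.200 FPKM in UDCA libraries. The ratio of means was 11.2-fold on 745 and 64 reads (log2 change -1.50, adjusted p = 5.39e-06). COL13A1 was tested through the control group only and so had to differ. COL18A1, the multiplexin of basement membranes from which endostatin is cut, fell 1.56-fold, from 15.9 ± 0.463 to 10.2 ± 0.451 FPKM (adjusted p = 8.49e-06). For COL18A1, 16.4% of exon bases lie within exons of SLC19A1 on the opposite strand, and how strand was counted is not given in the sources used here, so its level is less certain.

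COL15A1, the other multiplexin, and COL7A1, the anchoring fibril chain of skin, did not pass. COL15A1 was at 1.88, 2.03 and 1.79 FPKM in control and 1.65, 1.76 and 1.93 FPKM in UDCA libraries (log2 change -0.06, adjusted p = 0.449). COL7A1 was at 1.40, 1.60 and 1.63 FPKM in control and 1.47, 1.47 and 1.19 FPKM in UDCA libraries (log2 change -0.10, adjusted p = 0.291). On recovered reads with voom, an alternative added after seeing the data, COL7A1 was called lower (log2 change -0.26, adjusted p = 0.0149).

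Altogether 21 chains were not tested, and their highest value in a library was 1.30 FPKM. In 14 of them the groups did not overlap, against 26.8% of all 19510 untested genes (13.1% with UDCA above and 13.7% with UDCA under control). Those untested genes include genes that are not protein coding, so they are not a like set. UDCA values lay above control in COL21A1, COL4A3, COL5A2 and COL23A1 and under control in the other 10. Of these 14, COL1A2, COL3A1, COL4A6, COL5A3 and COL23A1 were not called without the filter on low values. Under 0.1 FPKM in every library were 8 of the 21. With no filter on low values, 9 of the 43 chains were called higher and 20 lower, against 22.8% and 19.8% of all 33890 genes. Besides those given above, the low chains had few reads: COL10A1, the hypertrophic cartilage chain, had 13 in control and 5 in UDCA libraries, the transmembrane COL25A1 19 and 16, COL17A1 3 and 2 and COL23A1 0 and 5, COL26A1 2 and 1, and COL28A1 38 and 1. With no filter COL23A1 was not called (adjusted p = 0.159, limma), and its reads are too few for a fold. No fold is given for COL17A1 and COL26A1, whose reads are at or under a floor of 3 in both groups.

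Ratios between chains of 1 trimer type were compared per library by an exact permutation test of the log2 ratio, 2-sided, for the 4 ratios with reads in all libraries. With 3 libraries against 3 the smallest p that this exact permutation test can give is 0.10, and all 4 ratios had p = 0.1 (adjusted 0.1), so the design could not reach 0.05. COL4A1 over COL4A2, which join 2 to 1 in the common type IV trimer, was 0.543, 0.518 and 0.548 in control and 0.378, 0.344 and 0.368 in UDCA libraries. COL6A1 over COL6A2 was 1.58, 1.62 and 1.61 in control and 0.440, 0.439 and 0.418 in UDCA libraries, so the order of these chains turned over. COL5A1 over COL5A2 was 34.6, 32.6 and 32.5 in control and 25.7, 28.0 and 22.6 in UDCA libraries. The log2 ratio differed by -0.56 for COL4A1 over COL4A2, by -0.39 for COL5A1 over COL5A2, by -1.89 for COL6A1 over COL6A2 and by -2.62 for COL6A3 over COL6A1. COL1A1 over COL1A2 was 80.1, 20.8 and 28.7 in control and could not be computed in UDCA libraries, where COL1A2 had 0 reads. Per the longest coding transcript the first ratio went from 0.402 to 0.272 and COL6A1 over COL6A2 from 1.30 to 0.350, in the same direction.

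Genes that make and handle collagen were read from 7 lists, which were written with earlier results of these data known. Their counts describe the lists and are no independent test. All 9 tested members of the export list of 10 were called higher, although CREB3L2 was not under 2 alternatives. Called lower were 3 of 3 tested cross-linking genes (6 listed), 3 of 4 for propeptide cleavage (8 listed) and 7 of 8 for breakdown and its inhibitors (15 listed). The counts stand beside 45.1% higher and 35.7% lower among all tested genes, with a median of 0.095.

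Chain modification and folding takes place in the endoplasmic reticulum, and of 17 tested members of 18, 12 fell and 5 rose (median log2 change -0.34). The paralogous prolyl 4-hydroxylase subunits, which stabilise the helix, parted: P4HA2 was at 19.8, 18.9 and 19.0 FPKM in control and 66.3, 68.6 and 69.6 FPKM in UDCA libraries (3.54-fold higher, log2 change 1.77, adjusted p = 8.71e-09), and P4HA1 went from 56.0 ± 0.518 to 29.6 ± 0.318 FPKM (1.89-fold lower, adjusted p = 3.81e-08). PLOD2, the lysyl hydroxylase of the telopeptides, fell 2.82-fold from 47.7 ± 0.539 to 16.9 ± 0.788 FPKM. SERPINH1, which encodes the collagen chaperone HSP47, fell 2.48-fold from 169 ± 2.02 to 68.3 ± 3.02 FPKM. With libraries scaled by the median ratio of genes, 3 members were called higher in place of 5, and FKBP14 and COLGALT2 lost the call. FKBP14 also lost it with quantile normalization and without 4 of the 6 libraries in turn (control 1, control 3, UDCA 1 and UDCA 2). P3H4, counted among the lower members, lost its call without control 2, control 3, UDCA 1 or UDCA 2.

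Procollagen leaves the endoplasmic reticulum in enlarged COPII carriers, and 9 of 9 tested members of the export list of 10 rose (median 0.85). MIA2 and MIA3, receptors that load collagen at the exit sites, went from 2.01 ± 0.0560 to 10.3 ± 0.253 FPKM (5.11-fold, adjusted p = 3.13e-08) and from 9.33 ± 0.272 to 20.6 ± 0.345 FPKM (2.20-fold). The coat subunits SEC24D and SEC23A rose 2.70-fold, from 7.18 ± 0.299 to 19.4 ± 0.221 FPKM, and 2.18-fold, from 9.73 ± 0.177 to 21.2 ± 0.756 FPKM. CREB3L2, a member with a log2 change of 0.14, lost its call with median ratio scaling and with voom.

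Outside the cell, propeptides are cut off before fibrils form. Of 8 members of that list 4 were tested, 3 fell and PCOLCE2 did not pass, with a mean of 4.13 FPKM in control and 3.98 FPKM in UDCA libraries (median log2 change -0.53). ADAMTS3, an N-propeptidase, was at 2.29, 2.35 and 2.08 FPKM in control and 0.567, 0.474 and 0.460 FPKM in UDCA libraries (4.48-fold lower, adjusted p = 6.84e-06). It was tested through the control group only and so had to differ. Without any 1 control replicate it was not tested, the list had 2 lower members, and its median lay between -0.21 and -0.19. PCOLCE, the enhancer of C-propeptide cleavage, fell 1.85-fold from 32.7 ± 1.94 to 17.6 ± 1.21 FPKM, and BMP1, the C-propeptidase itself, fell 1.16-fold from 12.0 ± 0.232 to 10.3 ± 0.427 FPKM.

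All 3 tested members of the 6 cross-linking genes fell, with a median of -1.75. LOXL2, a lysyl oxidase that acts on type IV collagen, was at 66.7, 64.9 and 63.3 FPKM in control and 9.12, 8.58 and 8.92 FPKM in UDCA libraries, 7.32-fold lower (log2 change -2.74, adjusted p = 2.05e-09). PXDN, the peroxidase that makes the sulfilimine bond of type IV collagen, fell 3.50-fold from 58.2 ± 1.13 to 16.6 ± 0.626 FPKM, and LOXL3 fell 3.35-fold from 61.0 ± 0.992 to 18.2 ± 0.614 FPKM. LOX, the classical lysyl oxidase of fibrils, was under 0.5 FPKM in every library and was not tested.

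Of 22 matrix partners 21 were listed and 14 tested, 9 fell, 4 rose and LAMA5 did not pass (median -0.70). SPARC, a collagen-binding glycoprotein, was at 594, 602 and 603 FPKM in control and 88.1, 84.6 and 89.7 FPKM in UDCA libraries, 6.85-fold lower (adjusted p = 8.14e-10). NID1, which links laminin to type IV collagen, fell 4.60-fold from 183 ± 1.44 to 39.9 ± 0.499 FPKM, and the laminin chain LAMA4 fell 3.63-fold from 69.1 ± 0.439 to 19.1 ± 0.0445 FPKM. BGN, a proteoglycan that binds collagen VI, rose 3.04-fold from 7.45 ± 0.505 to 22.6 ± 0.701 FPKM. The other higher partners were LAMB2, LAMB3 and AGRN, and AGRN lost its call with median ratio scaling and with voom. With voom LAMA5 was called lower (log2 change -0.37, adjusted p = 0.0013). LUM of this list also stands among the fibroblast markers.

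Collagen receptors numbered 9, with 6 tested, 4 lower and 2 higher (median -0.50). ITGB1, the shared beta chain of the collagen-binding integrins, fell 1.90-fold from 246 ± 1.22 to 129 ± 1.80 FPKM, and its partners ITGA2 and ITGA1 fell 2.04-fold and 1.75-fold. DDR2, a receptor kinase for fibrillar collagen, was at 17.9, 18.2 and 18.0 FPKM in control and 38.6, 37.6 and 37.8 FPKM in UDCA libraries, 2.11-fold higher (adjusted p = 3.05e-08). MRC2, the other higher receptor, takes up collagen for breakdown.

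Of 15 genes for collagen breakdown and its inhibitors 8 were tested, 7 fell and 1 rose (median -1.19). TIMP3, an inhibitor that stays bound in the matrix, fell 6.57-fold from 219.7 ± 6.54 to 33.4 ± 1.08 FPKM, and TIMP2 fell 2.44-fold from 81.4 ± 1.06 to 33.4 ± 0.760 FPKM. TIMP1 was the 1 tested member that rose, from 239 ± 7.60 to 307 ± 4.20 FPKM. The membrane-type metalloproteinases MMP15 and MMP16 fell 10.4-fold, from 9.75 ± 0.613 to 0.933 ± 0.139 FPKM, and 5.68-fold, from 34.3 ± 0.366 to 6.04 ± 0.182 FPKM. MMP14, the most abundant membrane-type member of the list, fell only 1.16-fold, from 60.2 ± 1.19 to 52.0 ± 0.526 FPKM. The interstitial collagenases MMP1, MMP8 and MMP13 were under 0.5 FPKM in every library and were not tested. MMP1 had 2 reads in control and 31 in UDCA libraries, and MMP8 had 61 and 5, in opposite directions and without overlap. MMP13 had 10 and 6, with overlap. The list thus joins enzymes and inhibitors that act against each other, and both kinds had lower members.

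**Figure D5:**
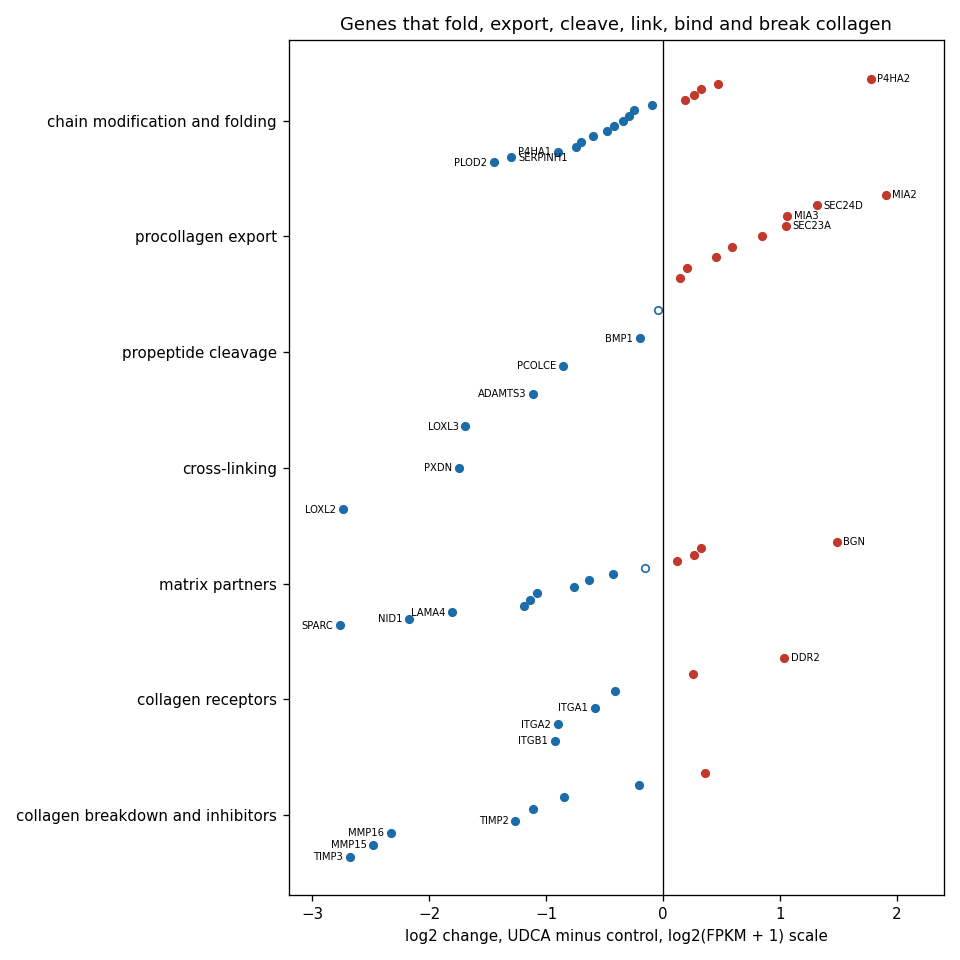
Log2 change (x axis, UDCA minus control in log2(FPKM + 1)) of each tested gene in 7 lists of genes that fold, export, cleave, link, bind and break collagen (y axis); filled points passed an adjusted p of 0.05 and the genes named in the text by rule are labelled. The 9 tested members of the export list all lie to the right of 0 and the 3 cross-linking genes all lie to the left of -1.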

How the data were processed

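Messenger RNA of 6 LN229 libraries was measured, 3 per group. Polyadenylated RNA went into Illumina TruSeq libraries, per the labels' protocols. HISAT2, Bowtie2 2.0.6 and GRCh38 appear in the submitters' processing notes without a stated use. Which program counted reads, and whether by strand, is not given in the sources used here. No unit is named by the authors, and the deposited values were taken as FPKM because multiplying them by merged GENCODE 29 exon lengths gave whole reads (100% of values within 0.01 reads). Positions of 33873 genes equal those of GENCODE 29, and the other 17 are mitochondrial genes that differ only in the chromosome's name.

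Genes that reached 1 FPKM in 3 or more libraries were tested with limma-trend (limma 3.58.1, R 4.3.3) on log2(FPKM + 1), with the group as the only term, 2-sided, and Benjamini-Hochberg adjustment at 0.05. The planned count model applied only to deposited counts. The test was checked on simulated data in which far fewer genes changed, all of them upward. That setting differs from these data, so the check does not cover changes this broad. Sums and figures used Python 3.11.15, pandas 2.3.3 and matplotlib 3.10.9. The members and lists were chosen with earlier results of these data known. Every collagen chain is accounted for, and of each list the text names up to 4 called members, ranked by the size of their change, with a higher group mean of 2 FPKM or more; a count of 5 or fewer may also name its genes. MMP14, the low collagenases and LOX were named after their values were seen. Promoter windows are RefSeq's, GRCh38.p14.

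Alternatives were a pseudocount of 0.1, no filter, median ratio scaling, quantile normalization, totals without mitochondrial genes, the replicate number as a block and each library left out. Added after seeing the data were voom on the recovered reads and levels per longest coding transcript.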

Additional observations from a re-analysis of the deposited data

How the results depend on the processing

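All 6 higher and 14 lower calls among collagen chains stayed on their side of the threshold under every alternative in which the chain was still tested. Over 612 gene values recomputed for collagens and named list genes, 611 kept direction and side; the exception is COL7A1 with voom (-0.26). Of other list genes, AGRN, CREB3L2, COLGALT2, FKBP14 and P3H4 lost a call and LAMA5 gained one, as given above. Without a UDCA replicate COL4A4 and COL24A1, and without a control replicate COL13A1, fell under the level for testing, so the collagen counts were 4 to 6 higher and 13 to 14 lower. With no filter 9 were higher and 20 lower, against 22.8% and 19.8% of all genes. Scaling by the median ratio moved the median of all tested genes from 0.095 to 0.018. The fold of the summed level (UDCA over control) was then 0.739 for all chains, 0.274 for fibrillar, 0.262 for basement membrane, 0.414 for other classes and 2.59 for collagen VI. Without mitochondrial genes in the totals it was 0.762, 0.282, 0.270 and 0.427 for the first 4. Per longest coding transcript it was 0.757 for all, 0.302 for fibrillar, 0.259 for basement membrane and 2.94 for collagen VI. Chain modification genes called higher numbered 3 with median ratio scaling. With no filter, breakdown genes called higher numbered 2 and the receptors' median log2 change was 0.000151, above 0 as members near 0 FPKM entered. The cause of the other shifts was not tested. TMM, which had been planned, was not run, and voom with library sizes from the median ratio of genes was added instead.

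Same-numbered libraries did not deviate together (r = 0.0143, -0.00119 and 0.00725 across genes, which are not independent replicates), so the numbers were not taken to pair samples. With the replicate number as a block 6 chains were higher and 14 lower, as without it. The 21 untested chains fall to the filter at 1 FPKM, not to depth alone: COL1A1 had 551 reads in control libraries.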
